A study of Mus musculus with 8 samples.

Results

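The subject is a set of 6 genes that couple the contractile speed of heart muscle to thyroid hormone: the myosin heavy chain genes Myh6, Myh7 and Myh7b, the thyroid hormone receptor genes Thra and Thrb, and the deiodinase gene Dio2. The members are given by gene symbol, with no threshold on a measured value, and all 6 symbols have a row among the 27304 genes of the count table. Heart RNA was sequenced from 129/Sv males, an inbred strain of mouse, that ate a diet with 0.15% adenine for 13 weeks (4 libraries, adenine 1 to 4) or a standard diet for as long (4 libraries, control 1 to 4). Adenine feeding injures the kidney and is used as a model of chronic kidney disease, and per the labels plasma creatinine and urea rose and the kidneys became fibrotic in the adenine group. The control libraries carry the word Sham in their titles, but the labels describe no operation. The age of the mice, the part of the heart that was sampled, the time of day and the level of thyroid hormone were not given in the sources used here. No label states that each library is an animal of its own, so the p-values measure only the spread between these libraries, which may be technical. Because the samples are bulk tissue, fewer cells of a type and less RNA per cell cannot be told apart.

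The myosin heavy chain is the motor of the thick filament. Myh6 encodes the fast alpha chain, the main ventricular chain of the adult mouse heart, and Myh7 the slow beta chain of the fetal heart, which comes back in hypothyroid and overloaded rodent hearts. Thyroid hormone reaches the nucleus as T3, binds the receptors encoded by Thra and Thrb, which act on DNA mostly as partners of retinoid X receptors, and raises Myh6 and lowers Myh7. Dio2 encodes the type 2 deiodinase, an enzyme that makes T3 from the prohormone T4 inside cells. Myh7b encodes a slow-type chain related to both, known for its microRNA more than for its protein. Low circulating T3 is common in chronic kidney disease.

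On the GRCm38 assembly Myh6 (ENSMUSG00000040752, 54941921 to 54966927) and Myh7 (ENSMUSG00000053093, 54970684 to 54994626) lie on the minus strand of chromosome 14, with 3756 bases between them. Thrb (ENSMUSG00000021779) spans 17660261 to 18038090 on the plus strand of the same chromosome. Myh7b (ENSMUSG00000074652) spans 155611212 to 155634307 on chromosome 2, Thra (ENSMUSG00000058756) 98740638 to 98769006 on chromosome 11, both on the plus strand, and Dio2 (ENSMUSG00000007682) 90724552 to 90738438 on the minus strand of chromosome 12. The promoter stretches of the paired chains are shown because the share of reads between the chains is described in the results. Both are the 250 bases before a RefSeq start on GRCm38.p6, written on the strand of the gene. Capitals mark a direct repeat of the hormone response element type, AGGTGA and AGGACA with 4 bases between them, and the core CATTCC of the M-CAT motif, which TEAD factors bind, on either strand.

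Myh6, chr14:54966608-54966857, minus strand: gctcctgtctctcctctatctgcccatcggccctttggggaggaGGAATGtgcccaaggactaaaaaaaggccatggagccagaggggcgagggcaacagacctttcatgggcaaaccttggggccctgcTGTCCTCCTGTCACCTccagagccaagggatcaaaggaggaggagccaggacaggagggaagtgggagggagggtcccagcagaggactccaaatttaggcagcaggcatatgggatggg
Myh7, chr14:54994627-54994876, minus strand: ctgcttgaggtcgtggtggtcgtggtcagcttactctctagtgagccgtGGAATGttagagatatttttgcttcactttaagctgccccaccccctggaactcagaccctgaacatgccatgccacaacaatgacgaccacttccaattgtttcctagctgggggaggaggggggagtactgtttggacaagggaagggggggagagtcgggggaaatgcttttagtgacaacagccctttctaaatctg

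The repeat lay 120 to 105 bases before the Myh6 start and was read on the opposite strand. It is known from the rodent gene as the element through which thyroid hormone receptors raise transcription. Of 32851 promoter stretches of the same length in the RefSeq table, 3 held it (0.00913%), and neither of the 2 Myh7 stretches in the table did. The canonical repeat, AGGTCA and AGGTCA with 4 bases between them, was in 5 of them (0.0152%) and in none of the stretches of Myh6, Myh7, Myh7b, Thrb and Dio2. CATTCC was in 12.6% of all stretches. It lay 206 to 201 bases before the start of Myh6 and 201 to 196 bases before the Myh7 start shown. The other Myh7 stretch did not hold it. The single motif AGGTCA, one unit of the canonical repeat, was in 14% of stretches, among them that of Myh7b and 1 of 2 of Thrb. Dio2 held CATTCC 36 to 31 and TATAAA 30 to 25 bases before its start, and TATAAA was in 12.4% of stretches. The Thrb stretch without AGGTCA also held both, CATTCC 96 to 91 and TATAAA 167 to 162 bases before its start. All motifs were searched on both strands. A stretch without these letters says nothing of binding elsewhere.

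Each of the myosin genes also carries a microRNA in an intron. The mature forms, from RefSeq, are shown with the seed (bases 2 to 8) in capitals because the genes share them as a family:
miR-208a-3p, in Myh6: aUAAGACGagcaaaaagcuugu
miR-208b-3p, in Myh7: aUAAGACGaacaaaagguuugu
miR-499-5p, in Myh7b: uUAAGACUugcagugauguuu
The 2 forms of miR-208 have the same seed, and that of miR-499-5p differs from it in the last base. In mice these microRNAs are known to act on the balance of slow and fast myosin genes.

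None of the 6 genes changed between the diets at an adjusted p under 0.05 in edgeR's quasi-likelihood test, the threshold used for every call here, with Benjamini-Hochberg adjustment across all 20093 tested genes. The same test called 8 of those, or 0.0398%. It called 0 genes lower, while 1333 (6.63%) were lower at an unadjusted p under 0.05. DESeq2 called 1.43% of genes (0.629% higher) and again none of the 6. Without adenine 3, edgeR called 0.322% (0.178% higher and 0.144% lower), none of them among the 6. The log2 fold change, adenine minus control, was negative for 4 of the 6 (Myh6, Thra, Thrb and Dio2) and positive for Myh7 and Myh7b, against a median of 0.05 over all genes. Thra was the 1 member at an unadjusted p under 0.05, a level reached by 17.5% of all genes. Levels are given as CPM, counts per 1000000 after TMM scaling of the library sizes.

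**Figure D1:**
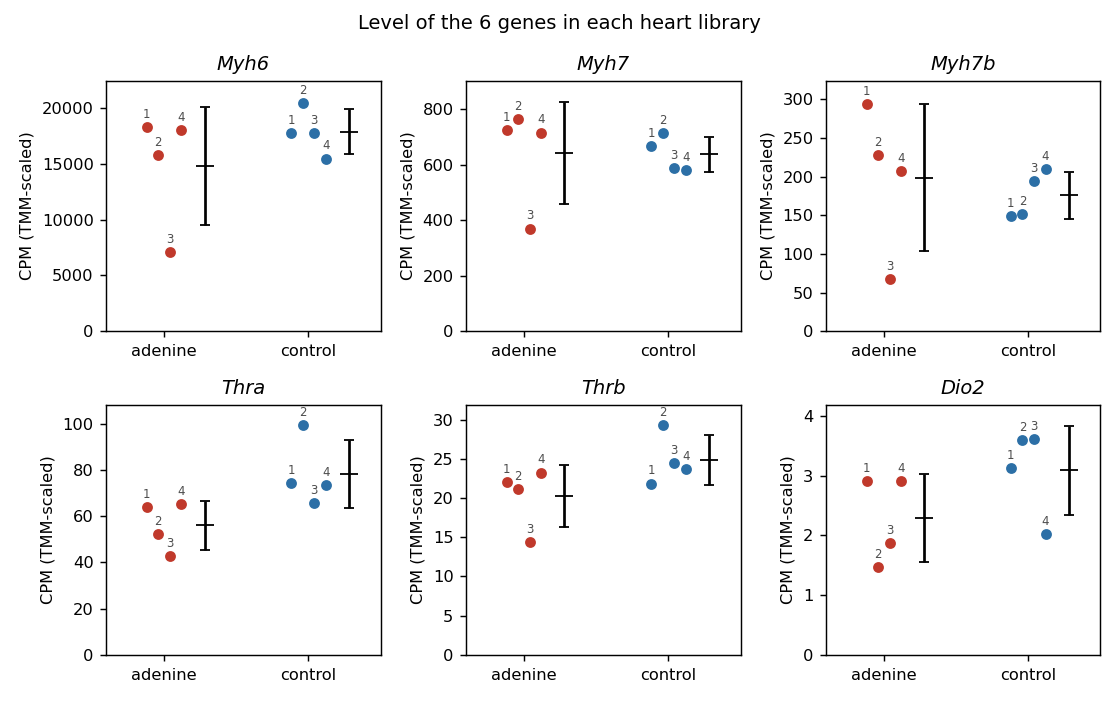
CPM of the 6 genes in each library on linear axes from 0, adenine left and control right. Points are libraries with their number, and bars are the mean ± SD (n = 4). Adenine 3 is the lowest of the 8 libraries for both cardiac chains, Myh7b and both receptors, and the adenine values of Thra, 42.6 to 65.2 CPM, end just below the lowest control value of 65.6 CPM.

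Myh6 was by far the most abundant of the set. It took 1.68, 1.66, 0.747 and 1.93% of all counts in adenine 1 to 4, against 1.68 to 1.79% in the controls, and ranked between 8 and 12 among all genes of a library. Its level was 18343, 15835, 7094 and 18011 CPM in adenine 1 to 4, against 17800, 20491, 17799 and 15483 CPM in control 1 to 4. The adenine values other than that of adenine 3 lay inside the control range. Its log2 fold change was -0.27 (SE 0.30; edgeR adjusted p = 0.598), and -0.05 without adenine 3.

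Myh7 stood at 726, 765, 370 and 717 CPM in adenine 1 to 4, against 668, 714, 589 and 580 CPM in control 1 to 4. Adenine 3 was again the lowest of all, while the other adenine libraries were above the highest control. A log2 fold change of 0.02 was fitted (SE 0.23; edgeR adjusted p = 0.973), with 0.20 and an adjusted p of 0.446 without adenine 3. The sign was not stable: with DESeq2 size factors, for example, the value was -0.0156. Myh7b had 293, 227, 67.1 and 207 CPM in adenine 1 to 4, against 149, 151, 194 and 209 CPM in control 1 to 4. It was below every control in adenine 3 and above or close to the highest control in the others. Its log2 fold change was 0.18 (SE 0.33; edgeR adjusted p = 0.756). Without adenine 3 this was 0.46 with an unadjusted p of 0.027 and an adjusted p of 0.134, and without adenine 1 it was -0.11.

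Per length the order of the chains was the same in all 8 libraries. Divided by the exon length of the annotation, Myh6 had 24.5 to 32.3 times the level of Myh7 in the adenine libraries and 34.2 to 38.7 times in the controls. Over Myh7b it had 61.7 to 104 times in the adenine libraries and 73.0 to 134 times in the controls. Myh6 averaged 2203.5 ± 783.5 CPM per kb in adenine libraries and 2660 ± 304 in controls, while Myh7 averaged 74.8 ± 21.4 in adenine libraries and 74.0 ± 7.48 in controls (SD, n = 4 each). Myh7b averaged 29.95 ± 14.3 CPM per kb in adenine libraries and 26.5 ± 4.597 in controls. The lowest Myh7 level, 43.0 CPM per kb in adenine 3, and the highest of Myh7b, 44.2 CPM per kb in adenine 1, came from different libraries.

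The share of Myh7 in the reads of the alpha and beta chains was higher in every adenine library than in every control. Of the reads on Myh6 and Myh7 together, Myh7 took 3.81%, 4.61%, 4.96% and 3.83% in adenine 1 to 4, against 3.62%, 3.37%, 3.21% and 3.61% in control 1 to 4. The means were 4.30 ± 0.577% in adenine libraries and 3.45 ± 0.200% in controls (SD, n = 4 each), and the diets did not overlap. The gap was narrow at its closest point: the 95% Wilson interval ran from 3.76 to 3.86% in adenine 1 and from 3.57 to 3.66% in control 1, limits that cover counting error only. The log2 ratio of Myh7 to Myh6 was -4.49 ± 0.20 in adenine libraries and -4.81 ± 0.09 in controls, a difference of 0.32. The exact two-sided permutation test gave p = 0.0286, the smallest that 70 assignments allow, and 0.0857 after adjustment over the 3 ratios computed, which does not pass. With 4 libraries per diet, a ratio that separates the diets alone among 3 cannot pass this adjustment.

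A ratio within a library needs no scaling between libraries, and it shows unequal change only, not which of the genes moved. Without adenine 3 the difference was 0.25 (p = 0.0571 in the same exact permutation test, which 3 against 4 libraries cannot undercut). The next highest share of Myh7 after adenine 3 was that of adenine 2, the shallowest library with 15626620 counts. Relative to the summed level of 9 cardiomyocyte markers, Myh6 was 44.0, 45.3, 25.7 and 47.4% in adenine 1 to 4, against 46.4, 47.4, 45.6 and 43.0% in control 1 to 4. Myh7 on that scale was 1.74, 2.19, 1.34 and 1.89% in adenine 1 to 4, against 1.74, 1.65, 1.51 and 1.61% in control 1 to 4. Neither differed between the diets beyond the spread (exact two-sided permutation p = 0.543 for Myh6 and 0.457 for Myh7). In adenine 3 both chains were at their lowest on this scale too, Myh6 by the wider margin.

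**Figure D2:**
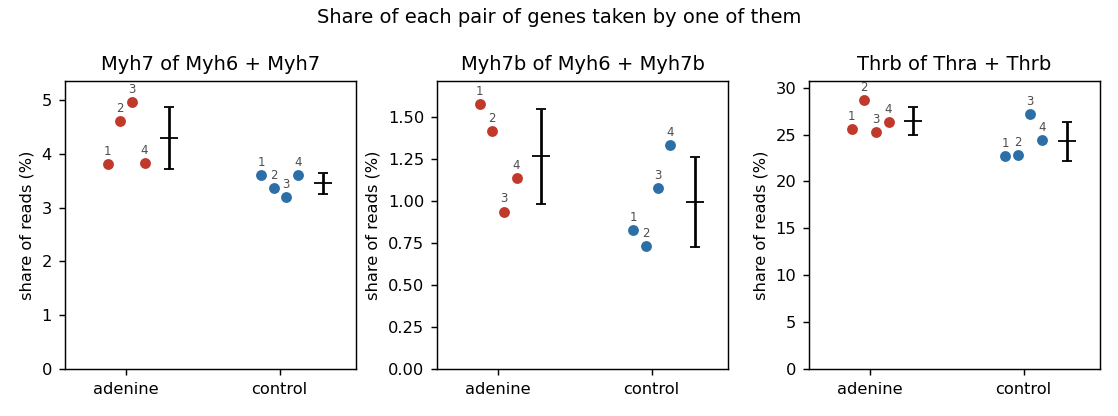
Share of reads, in percent from 0, taken by Myh7 in the pair Myh6 and Myh7, by Myh7b in Myh6 and Myh7b, and by Thrb in Thra and Thrb, adenine left and control right. Points are numbered libraries and bars the mean ± SD (n = 4). The diets separate for Myh7, with 3.81 to 4.96% in adenine and 3.21 to 3.62% in control libraries, and overlap for the other pairs.

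The chains are close paralogs, and how the counting treated reads that match both was not given in the sources used here. Of all stretches of 50 bases in the longest Myh7 transcript, 22.2% also occur in Myh6, and of stretches of 100 bases 11.2%. For Myh7b against Myh6, and for Thrb against Thra, the share was 0 at both lengths. The part of reads counted for the other chain in these levels was not tested. Myh7 also shares 484 exonic bases, 5.62% of its exon length, with Mhrt on the opposite strand, so reads of both genes cannot be told apart there unless the counting used strand. The same holds for 523 bases (6.07%) shared with Gm31251 and 142 bases (1.65%) shared with Gm29015, antisense genes that have no row of counts.

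Myh7b relative to Myh6 did not separate the diets. Its share of the pair was 1.57, 1.42, 0.937 and 1.14% in adenine 1 to 4, against 0.828, 0.733, 1.08 and 1.33% in control 1 to 4. The log2 ratio differed by 0.37 (exact two-sided permutation p = 0.2, and 0.2 adjusted over the 3 ratios), and by 0.50 without adenine 3. Control 4 lay above adenine 4, and adenine 3 below control 3, so the groups overlapped from both sides.

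Rows for the noncoding RNAs of these loci were low and uneven. Mhrt, a long noncoding RNA antisense to Myh7 that is known to protect the mouse heart, had 47.8, 33.8, 12.5 and 35.3 CPM in adenine 1 to 4, against 33.5, 32.5, 33.5 and 72.3 CPM in control 1 to 4. Its log2 fold change was -0.41 (SE 0.35; edgeR adjusted p = 0.492), and -0.04 without control 4. The row of Mir208a had 2.37 ± 1.40 CPM in adenine libraries and 1.32 ± 0.534 CPM in controls, with a log2 fold change of 0.84 (SE 0.53; adjusted p = 0.374). It was 0.48 without adenine 1 and 1.19 without adenine 3 (edgeR unadjusted p = 0.00501, adjusted p = 0.0823). The row of Mir208b had 24.0, 12.6, 4.78 and 18.2 CPM in adenine 1 to 4, against 18.6, 16.8, 15.5 and 35.3 CPM in control 1 to 4, with -0.53 (SE 0.39; edgeR adjusted p = 0.43). This value was -0.24 without adenine 3, -0.19 without control 4 and -0.90 without adenine 1. Mir499 was counted at most 3 times in a library and was not tested. These are reads of longer fragments at the position of the hairpin, within the introns of the host genes, and are not a measure of the mature microRNAs.

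Among the receptors, Thra was lower in every adenine library than in every control. It had 64.2, 52.5, 42.6 and 65.2 CPM in adenine 1 to 4, against 74.5, 99.3, 65.6 and 73.3 CPM in control 1 to 4. The groups are separated by the small step between adenine 4 and control 3. The mean was 56.1 ± 10.7 CPM in adenine libraries and 78.2 ± 14.6 CPM in controls (SD, n = 4 each). The log2 fold change was -0.48 (SE 0.18), with an unadjusted p of 0.0185 and an edgeR adjusted p of 0.26. Thra was the 1 member of 6 whose libraries did not overlap between diets, and 3.84% of all genes tested were without overlap in this direction. With upper-quartile factors, which raise the median log2 fold change of all genes by 0.14, the Thra ranges overlapped, 41.6 to 69.8 CPM in adenine libraries and 63.9 to 86.4 CPM in controls. Relative to the cardiomyocyte markers its difference was -0.33 on the log2 scale with overlap (exact two-sided permutation p = 0.0571, and 0.342 adjusted over the 6 genes).

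Thrb, the less abundant receptor, had 22.1, 21.1, 14.4 and 23.3 CPM in adenine 1 to 4, against 21.9, 29.3, 24.5 and 23.7 CPM in control 1 to 4. The lowest control lay among the adenine values. Its fold change on the log2 scale was -0.30 (SE 0.17; edgeR adjusted p = 0.34). Per length Thra was 3.99 to 4.74 times as high as Thrb in adenine libraries and 4.30 to 5.47 times in controls. Thrb took 25.6, 28.7, 25.3 and 26.3% of the reads of the pair in adenine 1 to 4, against 22.7, 22.8, 27.2 and 24.4% in control 1 to 4, and the difference in log2 ratio of 0.17 was within the spread (exact two-sided permutation p = 0.143, and 0.2 adjusted over the 3 ratios). Thra gives rise to a form that binds T3 and to one that does not, and counts per gene do not tell them apart. Thra shares 263 exonic bases, 5.70% of its exon length, with Nr1d1, the clock gene for REV-ERB alpha on the opposite strand. Nr1d1 had 39.0 ± 7.87 CPM in adenine libraries and 43.5 ± 10.2 CPM in controls (SD, n = 4 each) and a log2 fold change of -0.16 (SE 0.19; edgeR adjusted p = 0.618).

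Retinoid X receptors are the DNA-binding partners of both receptors. Rxra had 43.6, 45.9, 39.3 and 42.8 CPM in adenine 1 to 4, against 68.1, 67.5, 60.5 and 53.3 CPM in control 1 to 4, without overlap between the diets under each of the 4 scalings tried, where 7.29% of all genes were without overlap in either direction. Its log2 fold change was -0.54 (SE 0.13; unadjusted p = 0.00149, edgeR adjusted p = 0.17), and the DESeq2 test gave an adjusted p of 0.0476, where that test called 0.797% of genes lower. Rxrb had -0.32 (SE 0.15; adjusted p = 0.284) and Rxrg -0.31 (SE 0.22; adjusted p = 0.413), or -0.14 without adenine 3. All 5 receptor genes had negative log2 fold changes, with a median of -0.32, or -0.27 without adenine 3, against 0.05 over all genes, and 0 of 5 passed in edgeR. Their summed level was 205, 182, 143 and 204 CPM in adenine 1 to 4, against 249, 288, 225 and 220.1 CPM in control 1 to 4.

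Dio2 was the least abundant member. It was counted 73, 24, 59 and 78 times in adenine 1 to 4, against 97, 106, 97 and 53 times in control 1 to 4. This came to 2.92, 1.47, 1.88 and 2.92 CPM in adenine libraries, against 3.13, 3.59, 3.61 and 2.03 CPM in controls. Control 4 lay among the adenine values. A log2 fold change of -0.42 (SE 0.31; edgeR adjusted p = 0.43) was not detectable over the spread at this depth, and it was -0.27 without adenine 2. Of the other deiodinases, Dio1, which makes T3 in liver and kidney, averaged 0.371 CPM in adenine libraries and 0.177 CPM in controls. It was counted 5, 8, 5 and 17 times in adenine 1 to 4, against 4, 7, 4 and 5 times in control 1 to 4. In CPM, only adenine 2 and adenine 4 were above the control range. Dio3, which inactivates the hormone, had 0.200, 0.306, 2.42 and 0.224 CPM in adenine 1 to 4 (5, 5, 76 and 6 reads), against 0.258, 0.136, 0.149 and 0.497 CPM in control 1 to 4. Its higher adenine mean rested on adenine 3, without which it was 0.243 CPM. Both fell below the filter and were not tested. Wsb1, an adaptor that marks the Dio2 protein for degradation, had 18.2, 16.9, 35.6 and 20.5 CPM in adenine 1 to 4, against 28.5, 31.5, 26.6 and 28.4 CPM in control 1 to 4. Adenine 3 was above every control and the other adenine libraries below every control. The log2 fold change of Wsb1 was -0.33 (SE 0.21; edgeR adjusted p = 0.379), and -0.64 without adenine 3 (unadjusted p = 0.000411, adjusted p = 0.0576). Secisbp2, needed to build selenocysteine into deiodinases, had -0.23 (SE 0.17; adjusted p = 0.431), and -0.11 without adenine 3. Of 6 tested genes of this list 5 were negative, with a median of -0.20, and 0 passed.

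Of 8 tested genes for transport and binding of the hormone, 5 were positive and 3 negative, with a median log2 fold change of 0.29, and 0 passed. Slc3a2, the heavy subunit of amino acid exchangers that also carry thyroid hormone, had 44.1, 34.7, 45.3 and 37.5 CPM in adenine 1 to 4, against 31.1, 34.5, 23.4 and 29.0 CPM in control 1 to 4. Its libraries did not overlap, where 3.45% of all genes were without overlap in the higher direction, and the log2 fold change was 0.46 (SE 0.15; edgeR adjusted p = 0.24). Crym, a cytosolic protein that binds T3, was at 1.38 ± 0.613 CPM in adenine libraries and 0.836 ± 0.0913 CPM in controls (SD, n = 4 each), with 0.71 (SE 0.41; adjusted p = 0.352). It had 1.12, 1.90, 0.637 and 1.87 CPM in adenine 1 to 4, so adenine 3 was below every control.

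Of 9 tested corepressors and coactivators of the receptors, 3 were positive and 6 negative, with a median of -0.06 and 0 passing. Tbl1x, a subunit of a corepressor complex, had -0.32 (SE 0.17; edgeR adjusted p = 0.322) and Hdac3, the deacetylase of that complex, -0.16 (SE 0.14; adjusted p = 0.503).

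**Figure D3:**
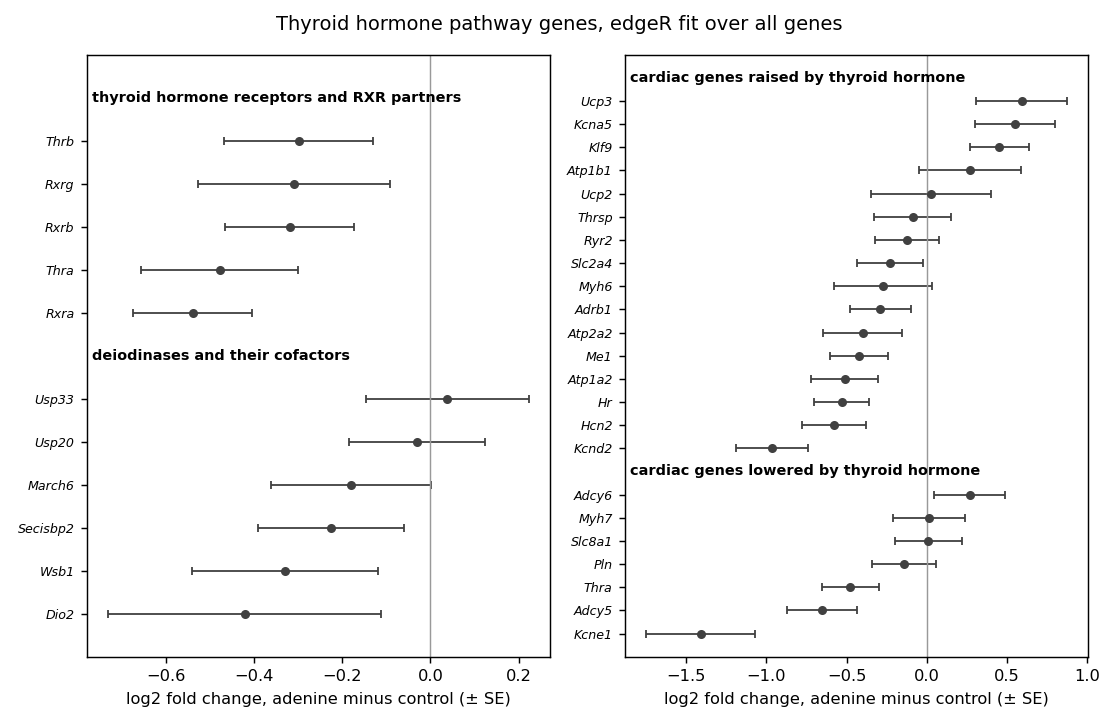
Log2 fold change, adenine minus control, with its SE for every tested gene of 4 lists on thyroid hormone (receptors with their partners, deiodinases with cofactors, and cardiac genes raised or lowered by the hormone), from the edgeR fit over all genes. All 5 receptor genes lie left of 0, from -0.54 for Rxra to -0.30 for Thrb, and genes raised and genes lowered by the hormone both fall on either side of 0.

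None of the genes listed as responding to thyroid hormone in heart passed in edgeR. The lists hold Myh6 (raised) and Myh7 and Thra (lowered) themselves. Of 16 tested genes that the hormone raises, 5 were positive and 11 negative, with a median log2 fold change of -0.25, or -0.15 without adenine 3. Of 7 that it lowers, 3 were positive and 4 negative, with a median of -0.14. Over all genes 45.8% were negative. Kcnd2, which encodes a channel of the transient outward potassium current, had 9.24, 9.11, 12.1 and 11.4 CPM in adenine 1 to 4, against 19.3, 29.6, 20.2 and 12.7 CPM in control 1 to 4. Its libraries did not overlap, where 3.84% of all genes were without overlap in the lower direction. DESeq2 gave an adjusted p of 0.0273, where that test called 0.797% of genes lower. The edgeR log2 fold change of Kcnd2 was -0.96 (SE 0.22), with an edgeR adjusted p of 0.147. Hr, a nuclear corepressor, had -0.53 (SE 0.17; adjusted p = 0.231), and Hcn2, a pacemaker channel, -0.58 (SE 0.20; adjusted p = 0.242). In the same list Klf9, a transcription factor that glucocorticoids raise as well, had a value of 0.45 (SE 0.18; adjusted p = 0.269).

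The calcium pump gene Atp2a2, a classic target next to Myh6, had 4673, 4589.8, 3250.2 and 3899 CPM in adenine 1 to 4, against 5451, 7538, 4622 and 4034 CPM in control 1 to 4. Its log2 fold change was -0.40 (SE 0.25; edgeR adjusted p = 0.368), or -0.21 without control 2, with overlap between the diets. Of the genes that the hormone lowers, Kcne1, a subunit of the slow delayed rectifier potassium channel, had 4.68, 6.30, 3.76 and 5.50 CPM in adenine 1 to 4, against 12.4, 22.2, 5.29 and 13.5 CPM in control 1 to 4. Only control 3 fell inside the adenine range. A log2 fold change of -1.41 was fitted (SE 0.34; edgeR adjusted p = 0.152, DESeq2 adjusted p = 0.00425, where DESeq2 called 0.797% of genes lower). Adcy5, an adenylyl cyclase, had -0.65 (SE 0.22; adjusted p = 0.236), and Pln, which encodes the pump inhibitor phospholamban, -0.14 (SE 0.20; adjusted p = 0.681).

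The other 11 myosin heavy chain genes fell into groups by abundance, and 0 of the 14 in the family passed. The 7 genes of skeletal, developmental and extraocular muscle (Myh1, Myh2, Myh3, Myh4, Myh8, Myh13 and Myh15) had means of 0.106 to 0.726 CPM per kb. All 7 log2 fold changes were positive, from 0.66 to 1.03, with edgeR adjusted p-values of 0.269 to 0.402. Myh4, a fast chain of limb muscle, had 2.84, 7.09, 2.04 and 5.50 CPM in adenine 1 to 4, against 2.42, 0.983, 2.31 and 2.79 CPM in control 1 to 4, and Myh2 had a log2 fold change of 0.81 (SE 0.35; adjusted p = 0.274). Adenine 2 and adenine 4, where Myh4 was highest, also had the highest sums over 1470 genes for olfactory and vomeronasal receptors. These were 2100 and 1311 counts per 1000000 without TMM scaling, against 368 to 922 in the controls. The part of this in the result was not tested beyond the fit that follows. With that sum as a covariate the 7 values ran from -0.18 to 0.35, and 5 were positive. Crym, described above and also highest in adenine 2 and adenine 4, had 0.28 with the same covariate. The 4 smooth muscle and nonmuscle genes (Myh9, Myh10, Myh11 and Myh14) had negative log2 fold changes of -0.97 to -0.21. Myh10, a nonmuscle chain of embryonic heart and fibroblasts, had -0.48 (SE 0.17; adjusted p = 0.249).

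**Figure D4:**
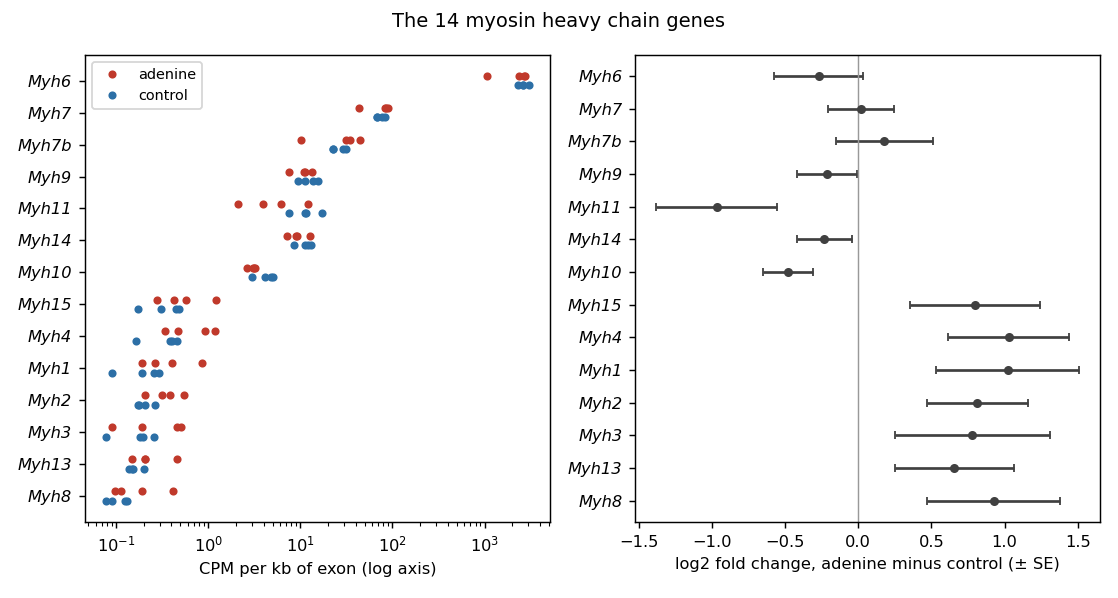
Left, level of the 14 myosin heavy chain genes in each library in CPM per kb of exon on a log axis, adenine above control within each gene. Right, log2 fold change, adenine minus control, with its SE. Myh6 stands at 1054.7 CPM per kb in adenine 3 and higher in the other libraries, the 7 skeletal, developmental and extraocular genes average at most 0.726 CPM per kb, and their log2 fold changes lie between 0.66 and 1.03.

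All 12 listed partners of myosin in the thick filament had negative log2 fold changes, with a median of -0.16, or -0.08 without adenine 3, and 0 passed. Unc45b, the chaperone that folds striated muscle myosin, had -0.54 (SE 0.21; edgeR adjusted p = 0.264), and Myl1 -0.59 (SE 0.29; adjusted p = 0.301), or -0.31 without control 2. Myl4, the atrial light chain, had 188, 6.85, 231 and 7.74 CPM in adenine 1 to 4, against 256, 2054, 23.5 and 157 CPM in control 1 to 4. Its log2 fold change was -2.52 (SE 1.23; edgeR adjusted p = 0.3), but -0.38 without control 2, the library with the highest sum of atrial markers, a list that holds Myl4 itself. Of 16 regulators of myosin genes 4 were positive and 12 negative, with a median of -0.12 and 0 passing. Among these were Nkx2-5 with -0.48 (SE 0.18; adjusted p = 0.26), Gata4 with -0.42 (SE 0.18; adjusted p = 0.274) and Mef2a with -0.36 (SE 0.18; adjusted p = 0.303), all cardiac transcription factors. Without control 2, Gata4 had -0.27 and Mef2a -0.19. Med13, the target through which miR-208a is known to act on thyroid hormone signalling in the mouse heart, had -0.01 (SE 0.14; adjusted p = 0.981).

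Across the 8 libraries, as a description, log2 CPM of Myh6 correlated with Myh7 (Pearson r = 0.907), Thrb (0.92) and Thra (0.792), and that of Thra with Thrb (0.906). Dio2 correlated with the others at 0.149 (Myh7b) to 0.68 (Thra), and Myh7b with Thra at 0.363. The points share scaling and the low values of adenine 3. Among 15090 named genes averaging 1 CPM or more, those most like a member were Zbtb40 and Ecsit for Myh6 (r = 0.984 to 0.99), Tmem266, Pex14 and Gzmm for Myh7 (0.965 to 0.971), and Plscr5, Fam53a and Ift140 for Myh7b (0.948 to 0.95). They were Khsrp, Suclg1 and Acbd4 for Thra (0.988 to 0.992), Sbk1, Mtg2 and Aldh4a1 for Thrb (0.973 to 0.979), and B3galnt2, Fam160b2 and Kank2 for Dio2 (0.976 to 0.995). Over 0.9 were 42 genes for Myh7 and up to 315 for Thra, out of the same 15090.

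Depth ran between 15626620 and 29831706 counts for adenine and between 24107554 and 33886385 for control libraries, of which mitochondrial genes took 34.2 to 41.9% for adenine and 31.0 to 35.6% for control. All 9 cardiomyocyte markers were present, with a summed level of 27626 to 41694 CPM in adenine libraries, lowest in adenine 3, and 36010 to 43280 CPM in controls. Atrial markers summed to 108.5 CPM in adenine 2 and up to 2212 CPM in adenine 3, against 896 to 4976 CPM in the controls with control 2 on top, and macrophage markers to 351, 277, 2409 and 221 CPM in adenine 1 to 4, against 265 to 484 CPM in controls. Summed markers of skeletal muscle were 9.88 to 17.9 CPM in adenine libraries and 7.06 to 10.2 CPM in controls, and those of smooth muscle 199.5 to 477 CPM in adenine libraries and 378 to 742 CPM in controls. Fibroblast markers summed to 573 to 1157 CPM in adenine libraries and 984 to 1589 CPM in controls, and endothelial markers to 433 to 582 CPM in adenine libraries and 555 to 738 CPM in controls. Adipocyte markers summed to 26.2 to 35.8 CPM in adenine libraries and 20.5 to 58.1 CPM in controls. Erythroid transcripts summed to 1657 to 3083 CPM in adenine libraries and 7005 to 26042 CPM in controls, without overlap. The part of these differences in the values of the 6 genes was not tested, beyond the scaling to cardiomyocyte markers given above.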

How the data were processed

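Heart RNA of 4 adenine and 4 control libraries was compared, grouped by sample title. The values deposited by the authors are raw, whole-number read counts per gene. FastQC 0.11.9, STAR 2.7.6a and GRCm38.p6 are named in the submitters' processing notes, and the counting program, annotation and strand setting were not given in the sources used here. Tests used edgeR 4.0.16 under R 4.3.3 (low-count filter by group, TMM, quasi-likelihood F-test, SE from the F statistic), and SDs are over 4 libraries. Ratios used a pseudocount of 0.5 and exact two-sided permutation. Exon lengths and overlaps came from a GENCODE annotation of GRCm38, promoter and microRNA sequences from RefSeq. The fit was tested on simulated counts. Before TMM scaling, 1 count per 1000000 was about 15.6 reads in the shallowest library. Chi-square per gene between replicates was 20.0 to 96.8, so none was a duplicate.

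The members and lists were chosen with earlier results of these data known. Named were the 6 members, per list the called genes or else the 3 with the lowest p, and per member the 3 genes of highest correlation. Rxrg, Med13, Klf9, Atp2a2, Pln, Nr1d1, Dio1, Dio3, Mir499 and the myosin subgroups were named after their values were seen. Alternatives were DESeq2 1.42.0, limma-voom (limma 3.58.1), other scalings and filters, robust edgeR, a replicate block, the receptor background, and libraries left out. Scaling to cardiomyocyte markers was chosen after seeing the data. A few genes that this rule picks are not reported here, though the counts and medians of the lists include them.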

Additional observations from a re-analysis of the deposited data

Results flagged for a closer look

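Of the 6 levels and 3 ratios examined in each diet, 18 groups of 4 libraries, 1 held a library far from the rest by Dixon's test at its 95% critical value: Myh7 at 370 CPM in adenine 3, where the gap to the next library was 0.878 of the range. Chance alone flags about 1 group in 20. The other adenine libraries had 717 to 765 CPM. Adenine 3 was also the library with the lowest sum of cardiomyocyte markers, 27626 CPM, and the highest sum of macrophage markers, 2409 CPM, and the part of these in the Myh7 value was not tested.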

How the results depend on the processing

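None of the 6 genes was called in any of the 20 fits (lowest adjusted p = 0.134, Myh7b without adenine 3), and 0 of 93 tested list genes were called higher in any. DESeq2 called 3 lower, Kcnd2, Kcne1 and Rxra, where it called 0.797% of all genes lower, against 0 in edgeR. Myh6, Thra, Thrb and Dio2 kept a negative sign under all 20 alternatives, with ranges of -0.42 to -0.05, -0.57 to -0.30, -0.38 to -0.14 and -0.58 to -0.18. The Myh7 value of 0.02 turned to -0.0156 with DESeq2 size factors, -0.032 without filter, -0.0813 in the DESeq2 test, -0.0281 in limma-voom, -0.0339 with the replicate block, -0.0792 with the receptor background and -0.00854 without both libraries numbered 2, and ran from -0.078 to 0.196 when 1 library was left out. Myh7b turned to -0.00334 with the receptor background and ran from -0.112 to 0.457 with 1 library left out. The Myh7 to Myh6 ratio stayed positive under all 11 alternatives, with 0.25 to 0.38 when 1 library was left out (p = 0.0571 each, the smallest possible), 0.27 without both libraries numbered 2 (p = 0.1, the smallest possible) and 0.32 in the exact sign-flip permutation test with the replicate block (p = 0.125, the smallest possible). The 8 genes called higher and 0 lower became 18 and 1 with upper-quartile factors, 120 and 152 in DESeq2, 5 and 0 in limma-voom, 16 and 16 with the replicate block, 20 and 2 with the receptor background, and 1 to 37 and 0 to 30 when 1 library was left out. The lower count was 1 without filter, 6 in robust edgeR and 1 without both libraries numbered 2. The replicate numbers gave no sign of pairing. Deviations of libraries with the same number correlated at -0.5 to 0.3, and of libraries with different numbers at -0.489 to 0.538. The cause of these shifts was not tested. Depth limits what can be said of Dio2, with 24 to 106 reads a library, and left Dio1, Dio3 and Mir499 untested.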
